A study of Mus musculus with 2 samples.

Results

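The genes described here are interferon-induced antiviral effectors outside the IFIT, OAS, GBP and Ifi200 families: restriction factors, PARPs, IFITMs, TRIMs and related proteins. A list of 44 mouse symbols was read from a table of gene expression, and the 43 with a mean of at least 1 FPKM (fragments per kilobase of transcript, divided by the mapped fragments, a measure set per length so that genes can be compared) over both libraries were kept, out of 10536 symbols that passed the same limit and 40017 symbols in all. The study profiled RNA from bone marrow-derived macrophages, which grow out of marrow cultured for 5 days with macrophage colony-stimulating factor at 20 ng/ml, to ask what SPP1 (osteopontin) does in the macrophage. The KO library came from SPP1fl/fl-Lyz2-icre mice and the WT library from SPP1fl/fl mice, so both carry the floxed gene and only the KO mice carry a Cre driven by the myeloid gene Lyz2. Each genotype has 1 library. The sources used here do not give the number of animals or cultures behind a library, or their sex, age and strain. By the steps of the lowest values, the WT library was 1.308 times as deep as the KO library. With 1 library a genotype there is no replicate check, no test was possible, and every difference is between these libraries.

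Type I interferon binds its receptor and activates factors that include STAT2 and IRF9, which bind a promoter element called the interferon-stimulated response element (ISRE). The genes switched on in this way act at different steps of a virus's life: entry, replication, assembly, release and survival of the host cell. In macrophages many of them are also expressed at a base level without infection, kept up by low amounts of interferon.

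The promoter sequences were not read to choose these genes. The genes were listed as interferon-induced, however, and the ISRE is an element through which interferon acts. A high share of ISRE matches among them is therefore not independent evidence. The RefSeq promoter table for GRCm38.p6 (250 bases before and 50 after each annotated start site) matched 34 of the 44 symbols. Ifi27, Ifi27l2a, Mx1, Mx2, Parp9, Parp10, Parp14, Rtp4, Tor3a and Zbp1 were not matched. The ISRE core searched for was GAAA, any 2 bases and GAAA again, on either strand. It was found for 16 of the 34 symbols (47.1%), against 3.99% of the 27025 symbols in the table. Counted by window, it stood in 18 of 46 windows of these genes (39.1%) and in 3.44% of all 32851 windows. The gamma-activated site core, TTC, any 3 bases and GAA, searched in the same way, was found for 9 of the 34 symbols (26.5%) and 9.55% of all symbols. The shorter core of AA, any 2 bases and GAAA, which lies inside the ISRE core and was added after the values were seen, was found for 30 of the 34 (88.2%) and 26.7% of all symbols. These matches describe letters in a window and do not show binding.

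Of the 16 genes with an ISRE core, Rsad2 and Ddx60 are shown further below and Shisa5 is not shown. The stretches around the core are shown here for the other 13, among them near-identical sites of neighbouring genes. Each is written 5′ to 3′ on the strand of its gene, with the core in capitals, so a core on the other strand reads as a pair of TTTC.
Bst2 (chr8:71537577-71537612, minus strand): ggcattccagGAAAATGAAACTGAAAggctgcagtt
Slfn8 (chr11:83020839-83020868, minus strand): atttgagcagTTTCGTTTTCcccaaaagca
Trim30a (chr7:104465210-104465239, minus strand): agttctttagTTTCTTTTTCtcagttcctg
Trim30a (chr7:104446104-104446133, minus strand): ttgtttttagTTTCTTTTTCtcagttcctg
Trim30d (chr7:104507871-104507900, minus strand): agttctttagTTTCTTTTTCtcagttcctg
Trim12a (chr7:104315466-104315495, minus strand): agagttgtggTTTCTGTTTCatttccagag
Trim12c (chr7:104353359-104353388, minus strand): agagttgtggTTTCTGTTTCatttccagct
Phf11a (chr14:59297532-59297561, minus strand): cacatttagaGAAAAAGAAActagaaccta
Phf11b (chr14:59341361-59341390, minus strand): cacatttagaGAAAAAGAAActagaaacta
Trim21 (chr7:102565447-102565476, minus strand): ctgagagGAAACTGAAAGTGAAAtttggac
Ifitm3 (chr7:141010715-141010743, minus strand): gGAAAAGGAAActtctgaGAAACCGAAAc
Ifitm2 (chr7:140955988-140956017, minus strand): ccaccaacagGAAAAGGAAAttgctagaga
Parp11 (chr6:127446786-127446815, plus strand): ttccttttagTTTCGATTTCttggaacccg
Slfn5 (chr11:82951937-82951966, plus strand): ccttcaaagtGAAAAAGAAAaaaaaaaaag
The stretches of Trim12a and Trim12c have the same letter at 28 of 30 positions, and those of Phf11a and Phf11b at 29 of 30. Trim30a has 2 windows with a core, and its stretches match that of Trim30d at 30 of 30 positions (the first shown) and at 26 of 30 (the second). Bst2 and Trim21 each hold overlapping cores.

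The 250 bases before the start site are shown for Rsad2 and Ddx60, which hold the core, and for Ifi44, the member with the largest difference between the libraries, which holds no exact core.
Rsad2 (chr12:26456453-26456702, minus strand): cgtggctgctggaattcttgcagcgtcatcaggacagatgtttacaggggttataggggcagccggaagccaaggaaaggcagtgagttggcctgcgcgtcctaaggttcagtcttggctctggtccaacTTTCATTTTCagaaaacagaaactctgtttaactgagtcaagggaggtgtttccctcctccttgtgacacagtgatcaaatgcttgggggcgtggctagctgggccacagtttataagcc
Ddx60 (chr8:61927837-61928086, plus strand): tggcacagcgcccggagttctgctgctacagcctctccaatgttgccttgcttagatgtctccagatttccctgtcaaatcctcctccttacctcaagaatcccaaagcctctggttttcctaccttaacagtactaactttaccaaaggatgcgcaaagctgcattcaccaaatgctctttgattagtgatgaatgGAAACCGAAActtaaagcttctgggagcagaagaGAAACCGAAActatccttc
Ifi44 (chr3:151749911-151750160, minus strand): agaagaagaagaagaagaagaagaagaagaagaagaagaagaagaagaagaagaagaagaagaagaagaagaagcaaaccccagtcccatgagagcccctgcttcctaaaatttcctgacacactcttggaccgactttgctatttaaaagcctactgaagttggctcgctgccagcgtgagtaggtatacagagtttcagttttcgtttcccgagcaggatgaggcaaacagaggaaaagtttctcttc
Ddx60 holds 2 separate cores. In Ifi44 the shorter core was found at 3 positions of the promoter window.

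The targeted gene Spp1 was at 4006 FPKM in WT and 11.3 FPKM in KO, and Lyz2, whose locus drives the Cre, at 29499 and 13539 FPKM. The antiviral effectors were higher in the KO library as a group. Of the 43 genes, 41 had a higher value in KO, where 47.4% of all symbols did. By a 2-fold rule, a difference of at least 1 in log2(FPKM + 1), 13 were higher and 0 lower in KO. Of all symbols, 1.23% were higher and 0.475% lower by that rule. At 1.5-fold, 30 were higher and 1 lower, against 3.24% and 1.15% of all symbols. At 3-fold, 5 were higher (Ifi44, Ifi27l2a, Zbp1, Rsad2 and Slfn8), where 0.541% of all symbols were. The median difference of the 43 genes was 0.78 on the log2(FPKM + 1) scale, and that of all symbols was -0.01. The median ratio of FPKM, KO over WT, was 1.74. These genes were put on a list with earlier results of these data known, so their counts describe the list and are not independent evidence. In RNA from a whole culture, a change in the share of cells that express a gene and a change in RNA per cell cannot be told apart.

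Markers of the cells were read beside this difference. Macrophage markers summed to 3590 FPKM in WT and 3580 FPKM in KO over 6 genes, 3 higher and 3 lower in KO. Their levels ran from Mertk (34.7 FPKM in WT and 30.1 FPKM in KO) to Cd68 (1825 and 1684 FPKM), which weighs most in the sum. Fcgr1 differed most, at 99.2 FPKM in WT and 190 FPKM in KO, a difference of 0.93. The rest lay between -0.20 (Mertk) and 0.14 (Adgre1). Of 4 monocyte markers 3 were higher in KO (sums of 22.8 and 29.0 FPKM), and of 7 neutrophil markers 4 were higher and 1 lower (1.71 and 3.19 FPKM), with Camp and Elane at 0 in both. Among the neutrophil markers only S100a8 passed the filter, at 1.52 FPKM in WT and 2.86 FPKM in KO. None of the others was above 0.220 FPKM (S100a9 in KO), so their directions rest on very low values. All 6 stromal markers were lower in KO (8.85 and 3.98 FPKM). Only Dcn (4.23 FPKM in WT and 1.46 FPKM in KO) and Bgn (3.18 and 1.84 FPKM) of them passed the filter. Conventional dendritic markers summed to 0.865 FPKM in WT and 0.708 FPKM in KO, T and NK markers to 0.880 and 1.07 FPKM with Cd3e, Cd8a, Nkg7 and Ncr1 at 0 in both, and B cell markers to 2.28 and 3.30 FPKM with 4 of 5 higher. In these lists only the B cell marker Cd79b passed the filter, at 1.77 FPKM in WT and 2.34 FPKM in KO. Transcripts of both sexes were present: Xist was at 58.5 FPKM in WT and 45.7 FPKM in KO, and the 4 Y-linked genes were 1.15 (Kdm5d) to 2.06 times (Uty) as high in KO. Whether these shifts have a part in the differences of the antiviral effectors was not tested.

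**Figure D1:**
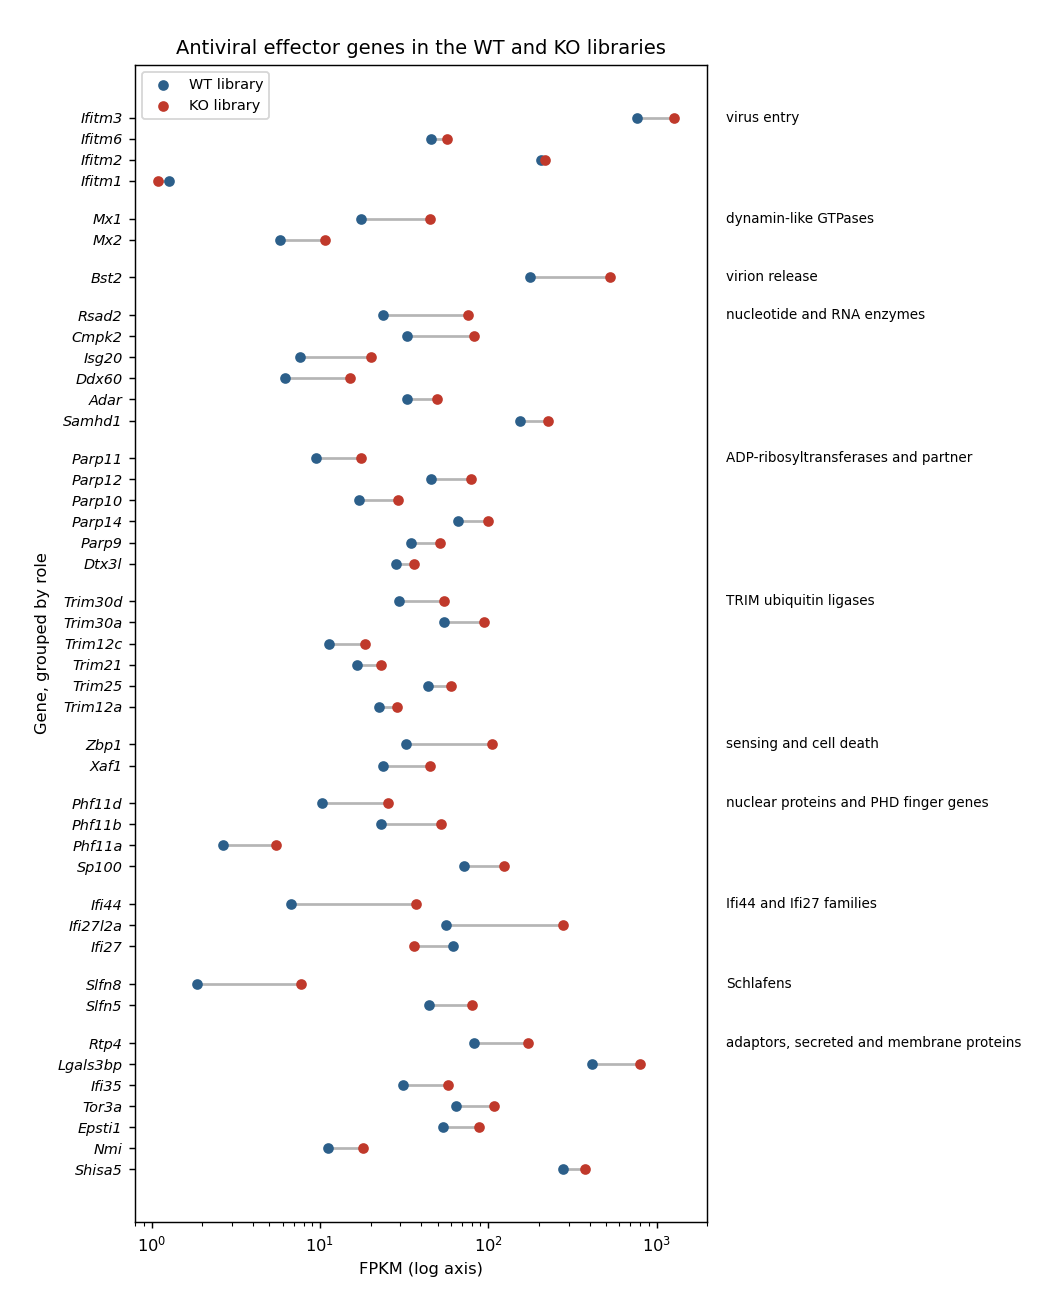
FPKM of the 43 genes in the WT library (blue) and the KO library (red) on a log axis, grouped by role and joined by a grey line for each gene. The red point lies to the right of the blue for all but Ifitm1 and Ifi27.

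Summed over the 43 genes, the level was 3129 FPKM in WT and 5597 FPKM in KO, which is 0.735% and 1.33% of each library's summed FPKM. The 4 genes with the largest excess in KO, in FPKM, Ifitm3, Lgals3bp, Bst2 and Ifi27l2a, made up 58.9% of that gap. At 100 FPKM or more stood 11 of the genes in KO and 6 in WT. All symbols were not counted at that level, so these counts only describe the list. The order of levels was much the same in both libraries, with a Spearman rho of 0.928 across the 43 genes, which share both libraries and are not independent. A gene's signed difference had a rho of -0.23 with its WT level, given as a description. The WT value enters both, and with a minus sign in the difference, so noise in it alone can pull the rho down.

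**Figure D2:**
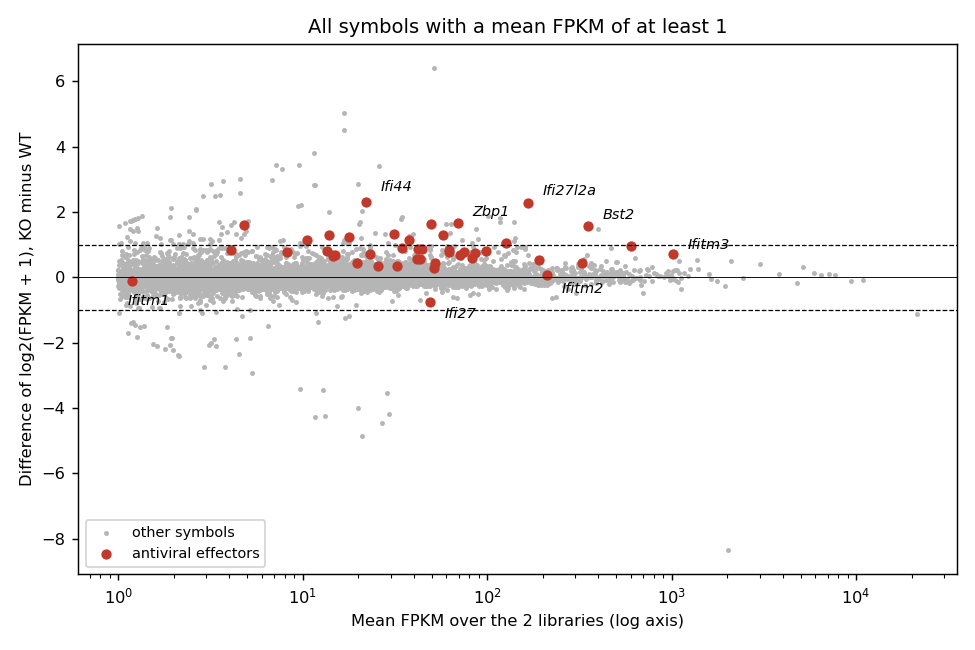
Difference of log2(FPKM + 1), KO minus WT, against mean FPKM on a log axis for all 10536 symbols (grey), with the 43 antiviral effectors in red and dashed lines at the 2-fold rule. The effectors lie between -0.75 (Ifi27) and 2.30 (Ifi44), and the lowest grey point is Spp1 itself.

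Of the 4 genes that act at virus entry, Ifitm3 differed most. Its protein sits in endosomal membranes and hinders the fusion of incoming viruses. Ifitm3 (chromosome 7, 141009586 to 141010770, minus strand, GENCODE M21 on GRCm38, the build also called mm10) was the most abundant gene of the list, at 768 FPKM in WT and 1263 FPKM in KO. That is 1.65-fold higher in KO, a difference of 0.72. Ifitm2, a relative from the same gene cluster that also acts against virus entry, was at 207 FPKM in WT and 218 FPKM in KO, close to equal. Its value is uncertain, since 40.9% of its exon bases overlap the gene Gm45717 on the same strand and 48.5% of its 50-base words stand in transcripts of other genes. Ifitm3 was 5.80 times the level of Ifitm2 in KO and 3.71 times in WT, compared as FPKM. Ifitm6 was at 46.0 FPKM in WT and 56.9 FPKM in KO, a difference of 0.30. Ifitm1 was near the lower limit of the list, at 1.27 FPKM in WT and 1.09 FPKM in KO, about 32 and 21 reads by the lower estimate of depth. These 4 genes lie within 63.1 kb. Both Ifitm2 and Ifitm3 hold an ISRE core in the windows shown above.

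Bst2, also called tetherin, holds budding virions at the cell surface, and it was among the genes that differed most. It was at 177 FPKM in WT and 526.6 FPKM in KO (chromosome 8, 71534255 to 71537456, minus strand). The KO value is 2.97 times the WT value, a difference of 1.57. Bst2 also marks plasmacytoid dendritic cells, and the other 4 markers fixed for that cell type, Siglech, Ccr9, Klk1 and Cox6a2, were below 1 FPKM in both libraries, with Klk1 listed at 0 in both. Siglech was at 0.155 FPKM in WT and 0.152 FPKM in KO.

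The Mx genes encode dynamin-like GTPases that trap viral ribonucleoproteins. Mx1 was at 17.5 FPKM in WT and 45.0 FPKM in KO, 2.58-fold higher. Mx2 was at 5.81 FPKM in WT and 10.7 FPKM in KO, 1.84-fold higher and short of the 2-fold rule. Many inbred mouse strains are known to carry defective alleles of both, and RefSeq lists both as transcribed pseudogenes on the C57BL/6J reference. GENCODE M21 lists Mx1 as protein coding and Mx2 as a polymorphic pseudogene. A transcript level here says nothing of a working protein.

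Of the 6 enzymes that act on nucleotides or RNA, all were higher in KO and 4 passed the 2-fold rule. Rsad2 (viperin), which makes a chain-terminating nucleotide, was at 23.9 FPKM in WT and 75.8 FPKM in KO, 3.18-fold higher. Cmpk2, a mitochondrial nucleotide kinase whose gene lies beside Rsad2 within 37.1 kb, was at 32.9 FPKM in WT and 82.8 FPKM in KO, 2.52-fold higher. Both members of this neighbouring pair were past the rule. The RNA exonuclease gene Isg20 was at 7.61 FPKM in WT and 20.3 FPKM in KO, 2.66-fold higher. Ddx60, a helicase-like gene tied to RNA sensing, was at 6.20 FPKM in WT and 15.0 FPKM in KO, 2.42-fold higher. With a pseudocount of 5 FPKM its difference of 1.15 became 0.84, under the rule. Samhd1, which breaks down the deoxynucleotides that viruses need, was at 154 FPKM in WT and 225 FPKM in KO, 1.46-fold higher. Adar, which edits adenosine in double-stranded RNA, was at 33.1 FPKM in WT and 49.95 FPKM in KO, 1.51-fold higher. Reads of Adar are less certain, because 16.8% of its exon bases overlap Chrnb2 on the opposite strand and whether counting used strand is not given.

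The PARP genes of the list differed by similar amounts. They encode ADP-ribosyltransferases, of which several attach single ADP-ribose units to proteins, and none of them passed the 2-fold rule. Parp11 was at 9.53 FPKM in WT and 17.5 FPKM in KO. Parp12, which acts against several RNA viruses, was at 45.5 FPKM in WT and 78.5 FPKM in KO. Parp10 was at 17.2 FPKM in WT and 29.1 FPKM in KO. These 3 had ratios between 1.69 (Parp10) and 1.84 (Parp11). Parp14, a large member with macrodomains, was at 66.0 FPKM in WT and 99.3 FPKM in KO. Parp9, which binds ADP-ribose and works in a complex with the ubiquitin ligase Dtx3l, was at 34.6 FPKM in WT and 51.7 FPKM in KO. Dtx3l itself was at 28.5 FPKM in WT and 36.4 FPKM in KO. These 3 neighbours within 140 kb on chromosome 16 had lower ratios, the smallest being 1.28 (Dtx3l). All 6 were higher in KO, with a median difference of 0.65. Parp9 and Dtx3l stand head to head and share 458 exon bases on opposite strands.

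The other genes of the PARP family had smaller differences, a gap that was not tested. The 5 PARP genes of the list had a median difference of 0.73, from 0.56 (Parp9) to 0.82 (Parp11). The other 8 family members past the filter had a median of -0.07 and ran from -0.25 (Parp4) to 0.28 (Tiparp). Parp1, the main DNA-damage PARP, was at 42.8 FPKM in WT and 40.2 FPKM in KO. The list was put together with interferon induction in mind, and these family comparisons were added after the values were seen.

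**Figure D3:**
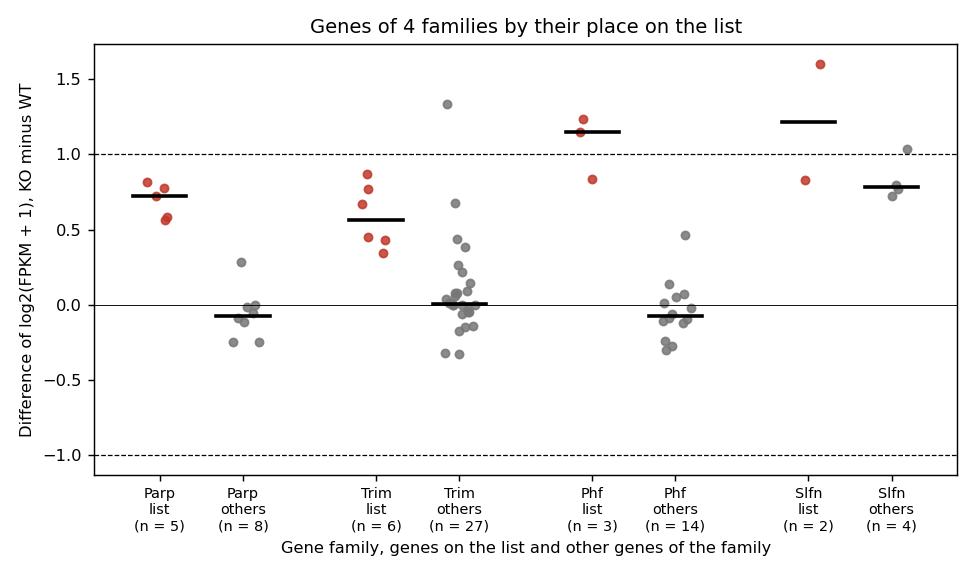
Difference of log2(FPKM + 1), KO minus WT, for genes of the PARP, TRIM, PHF and Schlafen families, split into genes of the list (red) and other genes of the family past the filter (grey), with medians as black bars and dashed lines at the 2-fold rule. The PARP and PHF genes of the list lie above all others of their family, while the TRIM and Schlafen genes overlap with theirs.

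The TRIM genes, ubiquitin ligases that act in sensing and restriction, were all higher in KO and none passed the 2-fold rule. The 6 genes had a median difference of 0.56. Trim30a, a mouse regulator of inflammatory signalling, was at 54.9 FPKM in WT and 94.3 FPKM in KO. Trim30d was at 29.5 FPKM in WT and 54.7 FPKM in KO, the largest ratio of the group at 1.85. Trim12c and Trim12a are relatives of Trim5, a retroviral restriction gene. Trim12c was at 11.3 FPKM in WT and 18.6 FPKM in KO. Trim12a was at 22.5 FPKM in WT and 28.9 FPKM in KO, the smallest ratio of the group at 1.28. These 4 genes lie within 208 kb on chromosome 7. Trim21, the cytosolic antibody receptor, was at 16.6 FPKM in WT and 23.0 FPKM in KO. Trim25, a ligase of the RIG-I pathway whose symbol has 2 rows in the table, was at 44.2 FPKM in WT and 60.0 FPKM in KO. The other 27 TRIM genes past the filter had a median difference of 0.01. Among them were relatives that differed as much as the list: Trim30c was at 2.30 FPKM in WT and 7.32 FPKM in KO, a difference of 1.33. Trim34a was at 15.9 FPKM in WT and 26.0 FPKM in KO, a difference of 0.68. In Trim12c 33.7% of the 50-base words stand in transcripts of other genes, most of them in Trim5, so its value is uncertain.

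Zbp1, a sensor of Z-form nucleic acid that can start necroptosis, had the largest difference among the genes of sensing and cell death. It was at 32.4 FPKM in WT and 105.6 FPKM in KO, 3.26-fold higher, a difference of 1.67. Xaf1, which counters an inhibitor of apoptosis, was at 23.7 FPKM in WT and 44.9 FPKM in KO, 1.90-fold higher.

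The PHD finger genes Phf11d and Phf11b passed the 2-fold rule. Phf11d was at 10.3 FPKM in WT and 25.5 FPKM in KO, 2.48-fold higher. Phf11b was at 23.2 FPKM in WT and 52.6 FPKM in KO, 2.27-fold higher. Phf11a, at 2.65 FPKM in WT and 5.50 FPKM in KO, had a ratio of 2.08 but a difference of 0.83, since the added 1 FPKM weighs more at low levels. With a pseudocount of 0.1 FPKM its difference was 1.03, past the rule, and with 5 FPKM that of Phf11d was 0.998, just under it. The 3 genes lie within 88.6 kb on chromosome 14. Of the 50-base words of Phf11b 47.0% stand in transcripts of other genes, and of those of Phf11a 35.2%, so the values of Phf11a and Phf11b are uncertain. For Phf11d the share was 8.09%. Another 14 PHF genes past the filter had a median difference of -0.07. Sp100, a component of nuclear bodies that repress viral genomes, was at 71.6 FPKM in WT and 125 FPKM in KO.

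The Ifi44 and Ifi27 families held both the largest differences and the main exception. Ifi44 (chromosome 3, 151730922 to 151749960, minus strand), an interferon-induced gene with a GTP-binding motif, was at 6.76 FPKM in WT and 37.3 FPKM in KO, a difference of 2.30 and number 20 of all 10536 symbols. Ifi44l, its neighbour, is listed at 0 in both libraries and is the only symbol of the list that missed the filter. Ifi27l2a (chromosome 12, 103442167 to 103443680, minus strand), which encodes a small hydrophobic protein, was at 56.1 FPKM in WT and 278 FPKM in KO, a difference of 2.29. Ifi27 went the other way, at 61.7 FPKM in WT and 36.3 FPKM in KO, 58.8% of the WT level and a difference of -0.75. It lies on the plus strand of chromosome 12 at 103434211 to 103440239, with 1927 bases between the genes in GENCODE M21. In the RefSeq table of the same build the span of Ifi27l2a covers Ifi27, and the labels do not name the annotation the authors counted on. The level of Ifi27 was 0.131 times that of Ifi27l2a in KO and 1.10 times in WT, and the sum of both was 118 FPKM in WT and 314.3 FPKM in KO.

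The Schlafen genes Slfn8 and Slfn5, of a family tied to growth control and restriction, have 4 rows each in the table, and the row with the highest mean was used. Slfn8 was at 1.87 FPKM in WT and 7.72 FPKM in KO, a difference of 1.60 that became 0.89 with a pseudocount of 5 FPKM. Slfn5 was at 44.5 FPKM in WT and 80.0 FPKM in KO. The other rows of Slfn5 and Slfn8 were below 0.6 FPKM in both libraries. Another 4 Schlafen genes past the filter had differences between 0.72 (Slfn9) and 1.04 (Slfn4), all higher in KO, and each also has 4 rows.

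The remaining 7 genes encode adaptors, secreted proteins and membrane proteins, and all 7 were higher in KO, with a median difference of 0.74. Rtp4, a chaperone-like protein that restricts some viruses, was the only member of this group past the 2-fold rule, at 82.0 FPKM in WT and 171 FPKM in KO. Rescaled without Spp1 and Lyz2 its difference was 1.002, barely past the rule, and 13.9% of its exon bases overlap Gm45338 on the same strand. Lgals3bp, a secreted protein that binds galectin-3, was the second most abundant gene of the list, at 413 FPKM in WT and 799 FPKM in KO, 1.93-fold higher and just short of the rule. The differences of Rtp4 and Lgals3bp were 1.05 and 0.95, on either side of it. Ifi35 was at 31.2 FPKM in WT and 57.6 FPKM in KO, with 16.8% of its exon bases under an antisense gene. Nmi, whose protein binds that of Ifi35, was at 11.2 FPKM in WT and 18.1 FPKM in KO. The torsin-family gene Tor3a was at 64.2 FPKM in WT and 107.8 FPKM in KO. These 3 had ratios of 1.85, 1.61 and 1.68. Epsti1 was at 54.2 FPKM in WT and 88.3 FPKM in KO. Shisa5, a protein of the endoplasmic reticulum, was at 278 FPKM in WT and 374 FPKM in KO, the smallest ratio of the 7 at 1.35.

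The differences were also read by promoter letters, with no test. The 16 with a core had a median difference of 0.82 and 5 of them passed the 2-fold rule. The 17 matched genes without one, past the filter, had a median of 0.77 and 4 passed. The unmatched genes are in neither group, among them Zbp1, Ifi27l2a, Mx1 and Rtp4, which passed the rule, and Ifi27, which was lower in KO. Ifi44, the gene with the largest difference, is among those without.

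Other interferon-induced genes were higher in KO as well, and no list held a gene lower by the 2-fold rule. The IFIT and ISG15 list, proteins that bind viral RNA or tag proteins, had a median difference of 1.30 over 10 genes, of which 8 passed the 2-fold rule, led by Ifit2 and Isg15 (1.89 and 1.82). For OAS genes and RNA sensors the median was 0.94 over 13 genes and 5 were past the rule, led by Oasl1 (1.63) and Oas3 (1.48). For interferon-inducible GTPases it was 0.96 over 10 genes with 5 past the rule, led by Gbp6 (1.34) and Igtp (1.19, a symbol with 2 rows), and for Ifi200 genes it was 0.84 over 9 genes with 2 past it, led by Ifi208 (2.18) and Ifi209 (1.37). The median of the 11 signalling genes was 0.09, with only Irf7 (1.70) and Stat2 (1.06) past the rule, while the receptor and kinase genes Ifnar1, Ifnar2, Ifngr1, Ifngr2, Jak1 and Tyk2 lay between -0.05 (Ifngr1) and 0.09 (Ifnar2). Of 10 interferon genes none passed the filter. Ifnb1 is listed at 0 in WT, with 0.374 FPKM in KO, Ifnk was at 0.161 and 0.105 FPKM, and the other 8 are listed at 0 in both.

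**Figure D4:**
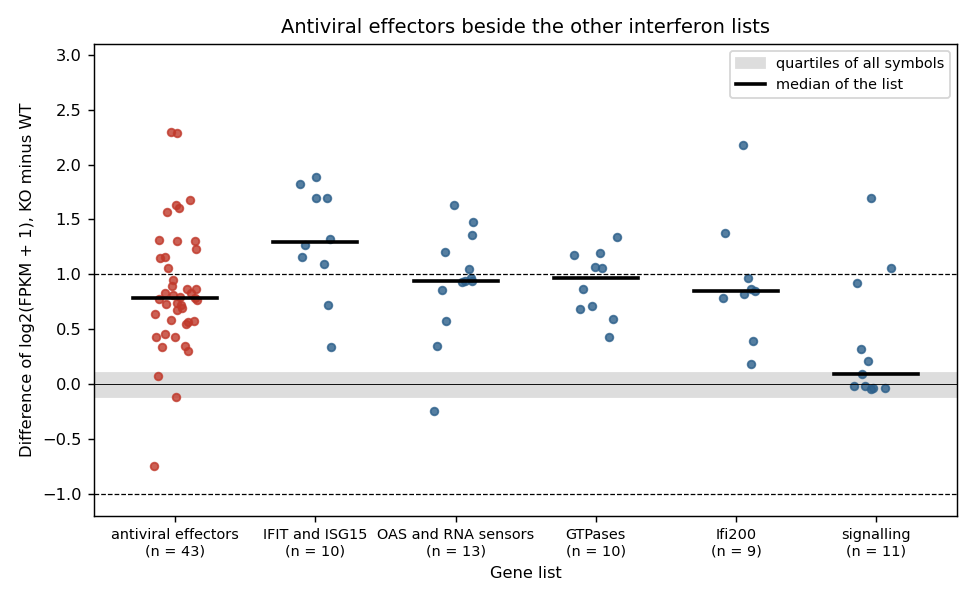
Difference of log2(FPKM + 1), KO minus WT, for each gene past the filter in the antiviral effector list (red) and in 5 other interferon lists (blue), with black bars at the medians, dashed lines at the 2-fold rule and a grey band for the quartiles of all symbols. The effector median of 0.78 lies below those of the IFIT and ISG15 list (1.30), the OAS list (0.94), the GTPases (0.96) and the Ifi200 genes (0.84), and above that of the signalling genes (0.09).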

How the data were processed

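RNA of 1 KO and 1 WT library was used, with groups taken from the genotype labels. The values are the authors' deposited FPKM in 1 table for the series. Per the submitters' processing notes, RSEM, DESeq2 and mm10 are named, with neither what each did nor a version in the notes as held here. Aligner, annotation, strand use and filters are not given in these sources. The table's other 2 value columns, headed WT-CM and KO-CM, fit neither sample's labels and were left out.

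A symbol with several rows kept the row with the highest mean FPKM. Differences are log2(FPKM + 1), KO minus WT, which understates changes of low genes, over symbols that averaged at least 1 FPKM. A symbol was called at a difference of 1 (2-fold), a rule of size without a test. Every gene of the list is named, and of each other interferon list the 2 largest differences. Other genes named were chosen after their values were seen, and the members and lists were chosen with earlier results of these data known.

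Depth was read from the lowest values, which move in whole-read steps. Over 2833 symbols taking the WT library as 1.308 times as deep turned 78.8% of value pairs into quotients of integers not above 10 (tolerance 1e-04). A ratio wrong by 5% did so for 9.99%. With GENCODE M21 exon lengths the most filled bin (15 of 72 genes) gave 17.4 M (mega) reads for KO and 22.7 M for WT. If that bin holds values of 2 reads rather than 1, depth was 34.8 M and 45.5 M, so no counting interval is given.

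Words of 50 bases of each gene's GENCODE M21 transcripts were looked up in all other transcripts. Of the 44 genes, 17 shared none, 23 shared up to 14.6% and 4 shared at least 20% (Phf11a, Phf11b, Ifitm2 and Trim12c). Alternatives were pseudocounts of 0.1 and 5 FPKM, 3 scalings, summed rows, other filters and other fold rules. Python 3.11.15, pandas 2.3.3, numpy 2.4.6, scipy 1.17.1 and matplotlib 3.10.9 were used.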

Additional observations from a re-analysis of the deposited data

How the results depend on the processing

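The count of 13 antiviral effectors higher and 0 lower in KO became 30 and 1 under a 1.5-fold rule and 5 and 0 under a 3-fold rule. It stayed within 1.5 times under the other pseudocounts, scalings, row choices and filters tried, and the median difference moved by at most 0.1. The background of all symbols, 130 higher and 50 lower, was less steady. It became 341 and 121 at 1.5-fold and 57 and 31 at 3-fold, 58 and 18 with a pseudocount of 5 FPKM, and 64 and 18 at a mean FPKM of at least 5. The lower symbols numbered 79 with a pseudocount of 0.1 FPKM, 20 without symbols of several rows and 82 with no filter. Fewer or more symbols are tested in the filter settings, and for the rest the cause was not tested. Of the single genes, 3 dropped under the rule with a pseudocount of 5 FPKM (Ddx60, Phf11d and Slfn8) and 1 was past it with 0.1 FPKM (Phf11a). No gene of the list changed direction under the pseudocounts, scalings and summed rows tried. No paired analysis was possible because each genotype has 1 library. Depth limits Ifitm1 most, with about 21 reads in KO by the lower estimate.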
